A study of Mus musculus with 19 samples.

Results

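Livers of mice that took a MASH diet (MD) and polyethylene particles (PE) together were compared with those of mice fed the control diet (CD) that took vehicle only (Veh). The comparison uses the 5 libraries of MD + PE and the 4 libraries of CD + Veh, which are 9 of the 19 bulk RNA sequencing libraries of the series, 1 library per mouse. It covers every gene that passed a filter on low counts by group, which left 13597 of 55836 genes listed. All mice were wild-type males of the C57BL/6 strain, from a commercial breeder at an age of 8 weeks, and none carried a transgene. MD is a diet rich in fat, fructose and cholesterol, which brings about metabolic dysfunction-associated steatohepatitis (MASH), a fatty and inflamed liver. PE was given by gavage at 2 mg per mouse each day over 8 weeks, in a vehicle of dilute Tween 20 that the mice without PE received alone. The 5 libraries of CD + PE and the 5 of MD + Veh carry 1 of the exposures each, and are used here for side by side values and for the test of whether MD + PE differed from every other group. MD + PE differs from CD + Veh in diet and particles at once, so that the comparison alone does not separate them. The mice are described as housed together in groups of 4 or 5, and where a cage held 1 exposure group, cage and exposure cannot be told apart.

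As background, hepatocytes make cholesterol and fatty acids from acetyl units under the control of the transcription factors SREBP-2 and SREBP-1, and dietary cholesterol shuts the sterol branch down by holding these factors in the endoplasmic reticulum. Fatty acids that reach the liver from the diet bind the nuclear receptor PPARα, which turns on their oxidation, while CAR and PXR, which sense foreign compounds, turn on cytochrome P450 genes. Liver that stores fat wraps it in lipid droplets coated by perilipin and CIDE proteins, and with time draws macrophages that take up lipid and stellate cells that lay down collagen.

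Each CD + Veh library held 13940970 to 15456729 counts on genes and each MD + PE library 11163063 to 12757617. Every MD + PE library was below every CD + Veh library (exact permutation test, two-sided, p = 0.00794, the smallest p these group sizes allow). The CD + Veh libraries are numbered 39 to 42 and the MD + PE libraries 53 to 57 in the column names, so that library order and exposure cannot be told apart. A division within the series ran between libraries 45 and 46, where counts of some ribosomal pseudogenes ended, and all CD + Veh libraries lay before it and all MD + PE libraries after it. Levels of circadian clock genes also differed. The clock score is the mean log2 CPM of Bmal1, Clock, Npas2 and Nfil3 minus that of Dbp, Tef, Hlf, Per2, Per3 and Ciart. It ran from -4.34 to -2.61 in CD + Veh and from -1.39 to 0.385 in MD + PE. Calls lost with the division or the clock score as a covariate in the fit are given beside the gene or its list, in part as a count of settings. The division could be separated from exposure only through the MD + Veh libraries, 3 of which lay before it and 2 after it. Hepatocyte genes were high in all groups, the albumin gene Alb among them. MD + PE replicate 2 held markers of duct and gut-type epithelium, and MD + PE replicate 4 the highest levels of some macrophage and collagen genes. For part of such genes, results are given without these libraries too.

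Of the 13597 genes tested, 1982 were called (14.6%), 819 of them higher (6.02% of genes tested) and 1163 lower (8.55%) in MD + PE than in CD + Veh. A gene was called at an adjusted p below 0.05 in edgeR's quasi-likelihood test with Benjamini-Hochberg adjustment and a log2 fold change of 0.38 or more in either direction. The called genes changed by a median of 0.72 where higher and -0.66 where lower on the log2 scale, and 256 rose and 349 fell by at least 1. The median change of all genes tested was -0.00107. Here and below, CPM are counts per 1000000 counts of the library after scaling by edgeR's TMM factors, and SE is the standard error of a log2 fold change. A value in brackets after a gene symbol is its log2 fold change of MD + PE over CD + Veh, with SE and adjusted p where these are given. CPM are not adjusted for gene length and serve to compare 1 gene between libraries, not genes with each other. Positions of genes are from GENCODE vM39 on GRCm39. DESeq2, at the same limits, called 2134 genes, of which 1895 were also called by edgeR. With the division of library numbers as a covariate 930 genes were called, and with the clock score 1178.

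**Figure D1:**
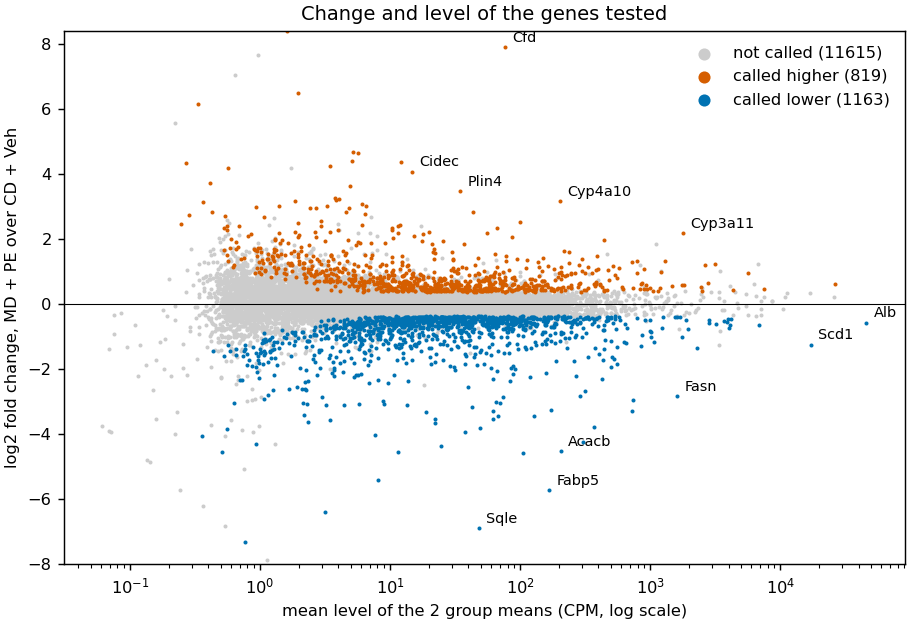
Log2 fold change of MD + PE over CD + Veh against the mean CPM of both groups (log scale) for the genes tested, 1 point per gene, with 819 genes called higher, 1163 called lower and 11615 not called; 10 points lie outside the plotted range. Sqle, Fabp5, Acacb and Fasn lie far below the line at 0, and Cfd, Cidec, Plin4 and Cyp4a10 far above it.

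Among genes without overlap between the groups whose higher group averaged 5 CPM or more, Cfd rose most. It encodes complement factor D (adipsin), a protease best known from fat cells. Cfd lies on chromosome 10 from 79726668 to 79728496, plus strand. Its levels were 0.435, 1.65, 0.134 and 0.337 CPM in the 4 CD + Veh libraries and 112, 207, 164, 68.4 and 211 CPM in the 5 MD + PE libraries. Every MD + PE library was thus above every CD + Veh library by a wide margin, and the log2 fold change was 7.92, SE 0.58, adjusted p = 1.44e-08. Next came Gpnmb (4.68), the semaphorin gene Sema5b (4.40), Themis (4.24), best known as a gene of developing T cells, and the lipid droplet genes Cidec (4.07) and Plin4 (3.48). The other 6 of the 12 were Cyp2a22 (3.23), Derl3 (3.20), Cyp4a10 (3.16), Orm3 (3.00), the retinoic acid hydroxylase gene Cyp26b1 (2.96) and Adam11 (2.85). Themis was at 0.124, 0.501, 0.0671 and 0.674 CPM in CD + Veh and at 4.39, 4.88, 5.82, 11.2 and 6.29 CPM in MD + PE. Of 16 lymphocyte and granulocyte markers listed, 6 passed the filter on low counts, and 2 did in a fit of the 9 libraries alone. Of the 6, 0 were called by edgeR (0 at an unadjusted p below 0.05) or by DESeq2, against 6.02% higher and 8.55% lower over all genes. With the clock score as a covariate 1 was called lower. So few markers at such low levels cannot show whether these cells changed. Cyp2a22 and Gpnmb lost their calls with the clock score as a covariate, and Derl3 and Cyp26b1 with the division of library numbers.

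The largest fall with counts left in MD + PE was in Chrna4. Chrna4, which encodes a subunit of the nicotinic acetylcholine receptor, was at 53.2, 115, 48.1 and 151 CPM in CD + Veh and at 0.0813, 0, 0, 0.343 and 0 CPM in MD + PE, a fitted change of -9.74, SE 0.71, adjusted p = 1.26e-08 on the log2 scale. Its level in MD + PE rests on very few counts, with 0 in 3 of the 5 libraries. Fabp5, which encodes a fatty acid binding protein, was at 403, 229, 265 and 418 CPM in CD + Veh and at 5.36, 7.49, 5.65, 7.76 and 4.58 CPM in MD + PE (on chromosome 3 from 10077602 to 10081674, plus strand). Its log2 fold change was -5.73, SE 0.36, adjusted p = 3.46e-09. Between Chrna4 and Fabp5 in size stood Sqle (-6.91) and Pnpla5 (-6.40), and after them came Pnpla3 (-5.42), Idi1 (-4.57) and Pdzk1ip1 (-4.55). The remaining 5 of the 12 largest falls were Rps6-ps4, Rps12-ps3, Gm11518, H2ac19 and Gm12338, each with 0 counts in all 5 MD + PE libraries, for which only a bound can be given. Set against 3 counts in each library as the floor, these were at least 405-fold, 135-fold, 135-fold, 47.2-fold and 30.9-fold lower, a floor that covers counting error only. Rps6-ps4, a processed copy of a ribosomal protein gene, was at 105, 90.2, 104 and 99.7 CPM in CD + Veh, at 70.1, 77.6 and 74.2 CPM in the 3 MD + Veh libraries before the division of library numbers, and at 0 in every library after it. H2ac19 is a histone gene of the kind whose mRNA ends without a poly(A) tail, in libraries made from poly(A) mRNA. These 5 genes, Gm11518 apart, lost their calls with the division as a covariate. Of 268 pseudogenes tested, 86 were called lower and 5 higher (34.0% called), against 14.2% of 12343 protein-coding genes (735 higher, 1019 lower).

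Genes of cholesterol synthesis fell throughout. All 20 of the list were called lower, against 8.55% of all genes, with a median log2 fold change of -2.94, and their summed level was 3524 to 5843 CPM in CD + Veh and 1072 to 1390 CPM in MD + PE. Squalene epoxidase (Sqle, on chromosome 15 from 59186869 to 59203043, plus strand), which carries out the first oxygen-requiring step of sterol synthesis, stood at 98.6, 92.0, 61.0 and 133 CPM in CD + Veh. In MD + PE it stood at 0.650, 1.43, 0.348, 1.30 and 0.0898 CPM, or -6.91, SE 0.49, adjusted p = 1.03e-08 on the log2 scale. The smallest adjusted p of the list was that of Nsdhl (on chromosome X from 71961712 to 72002129, plus strand), which encodes a dehydrogenase that helps to remove methyl groups from the sterol ring. Nsdhl was at 63.1, 70.8, 55.4 and 95.9 CPM in CD + Veh and at 4.06, 6.99, 3.82, 4.19 and 4.31 CPM in MD + PE, with no overlap (-3.93, SE 0.19, adjusted p = 3.04e-10). Fdps, the gene of farnesyl diphosphate synthase, was at 512, 585, 386 and 836 CPM in CD + Veh and at 30.6, 31.7, 15.7, 49.5 and 24.8 CPM in MD + PE (-4.25, SE 0.32, adjusted p = 2.22e-08). The isomerase gene Idi1 (-4.57), the late-step genes Dhcr7 (-3.01), Tm7sf2 (-2.31) and Sc5d (-1.69), and Msmo1 (-2.87), which encodes a sterol oxidase, were among those with the smallest adjusted p. Side by side, 10 of the 20 genes were called lower in CD + PE against CD + Veh (2.92% of all genes called there), 19 in MD + Veh against CD + Veh (10.4%) and 10 in MD + PE against MD + Veh (1.08%). These comparisons share libraries. Over 29 alternative settings 19 or 20 of the 20 were called lower, 19 of them with the division of library numbers and 19 with the clock score as a covariate.

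**Figure D2:**
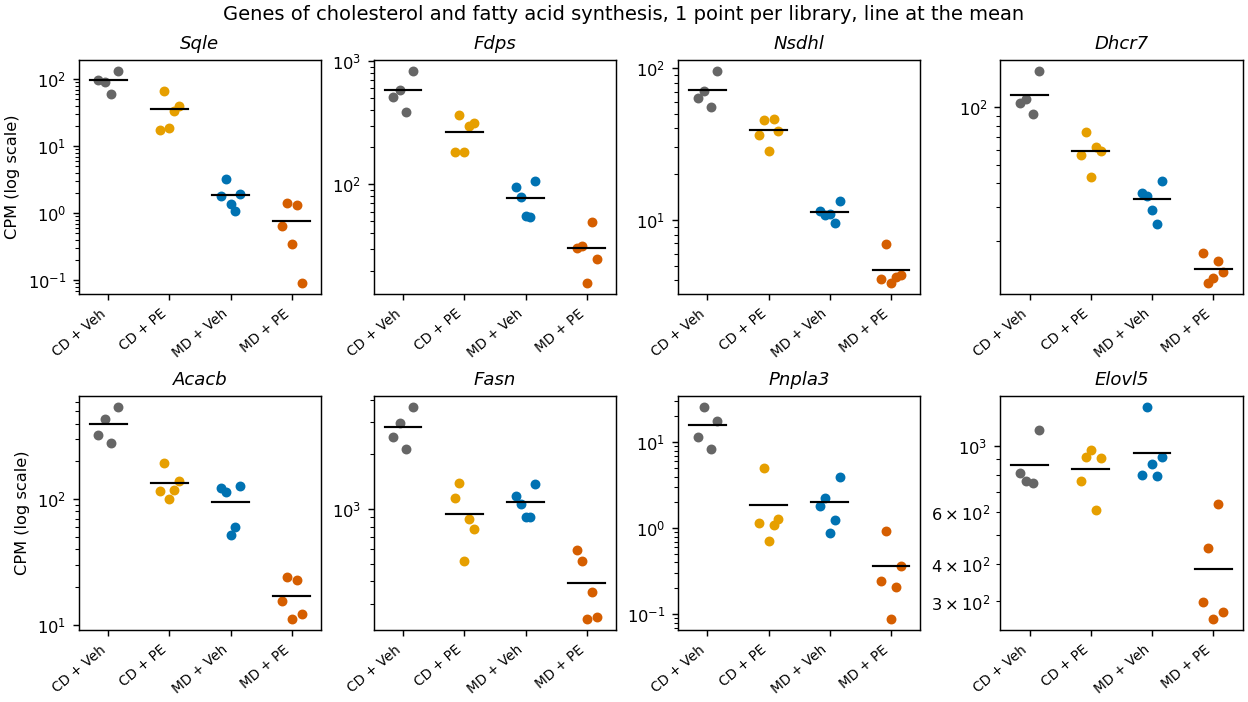
CPM (log scale) of 8 genes of cholesterol and fatty acid synthesis in every library by group, with a line at the group mean. Every MD + PE library lies below every CD + Veh library in each of the 8 genes, and the means of Elovl5 in CD + Veh, CD + PE and MD + Veh are 863, 832 and 945 CPM.

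Genes that sense sterols or take up lipoprotein moved mostly the same way, with 7 of 11 tested called lower and 2 higher (median -0.86). The shares over all genes were 8.55% lower and 6.02% higher. Mylip, which encodes a ubiquitin ligase, rose from 8.90 ± 1.70 CPM (SD, n = 4) to 16.7 ± 2.62 CPM (SD, n = 5) (0.90, SE 0.17, adjusted p = 0.00103), and lost its call with the clock score as a covariate. Scap (-1.24), the escort protein of SREBP, Stard4 (-2.01), a sterol carrier, and Srebf2 itself (-0.86) fell. The retention factors split, since Insig1 fell (-1.62, SE 0.27, adjusted p = 3.04e-04) and Insig2 rose (1.15, SE 0.18, adjusted p = 1.14e-04), the latter losing its call with the clock score as a covariate. Srebf1, the SREBP-1 gene, was at 538, 556, 443 and 408 CPM in CD + Veh and 637, 588, 442, 372 and 384 CPM in MD + PE, with overlapping groups (-0.0046, SE 0.22, adjusted p = 0.991).

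Some genes that carry sterol out of the hepatocyte went the other way. The transporter genes Abcg5 and Abcg8, which together pump sterol into bile, both rose. Abcg5 went from 81.8 ± 11.6 CPM (SD, n = 4) to 218 ± 36.1 CPM (SD, n = 5) (1.41, SE 0.16, adjusted p = 3.40e-06), and Abcg8 from 100.4 ± 16.4 CPM (SD, n = 4) to 226 ± 55.3 CPM (SD, n = 5) (1.17, SE 0.18, adjusted p = 1.31e-04). Abcg1 rose too (1.19), with its call lost under the clock covariate. Slc10a1, the main bile acid uptake carrier, fell from 611 ± 61.6 CPM (SD, n = 4) to 283 ± 57.5 CPM (SD, n = 5) (-1.11, SE 0.15, adjusted p = 4.27e-05). The rate-limiting bile acid gene Cyp7a1 averaged 81.0 ± 35.8 CPM (SD, n = 4) without exposure and 89.5 ± 53.8 CPM (SD, n = 5) in MD + PE (0.14, SE 0.42, adjusted p = 0.851). Of the 18 genes of efflux and bile acid handling tested, 3 were called higher and 2 lower, with a median log2 fold change of -0.030. Over all genes 6.02% were called higher and 8.55% lower.

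Genes of fatty acid synthesis fell as well, in counts to be set beside the 8.55% of all genes called lower and the 6.02% called higher. Of 17 tested, 16 were called lower and 0 higher, with a median log2 fold change of -2.32, and 1 gene, Mlxipl, was not called (-0.044, SE 0.14, adjusted p = 0.864). Acacb (on chromosome 5 from 114284307 to 114388822, plus strand), the acetyl-CoA carboxylase whose product also restrains fatty acid entry into mitochondria, was at 327, 434, 280.0 and 545 CPM in CD + Veh and at 15.4, 23.9, 11.04, 22.6 and 12.2 CPM in MD + PE. Its log2 fold change was -4.53, SE 0.32, adjusted p = 1.08e-08, and no library of 1 group reached the range of the other. Fasn (on chromosome 11 from 120696672 to 120715995, minus strand), the fatty acid synthase gene, was at 2501, 2989, 2142 and 3651 CPM in CD + Veh and at 596, 519.9, 247, 349 and 254 CPM in MD + PE (-2.84, SE 0.29, adjusted p = 1.02e-06). The steps before it fell as well, with Slc25a1, the mitochondrial citrate carrier (-1.21), Acly, which splits citrate (-3.29), Acss2, which activates acetate (-3.78), Acaca (-2.23) and Me1, a source of NADPH (-2.32). Scd1, the stearoyl desaturase gene and among the most abundant transcripts of these livers, fell from 24256 ± 5976 CPM (SD, n = 4) to 10203 ± 1771 CPM (SD, n = 5) (-1.25, SE 0.20). Side by side, Scd1 changed by -1.06 in CD + PE against CD + Veh and by 0.073 in MD + Veh against the same libraries, the latter not called. Of the list, 12 genes were called lower than in CD + Veh in CD + PE and 13 were in MD + Veh, and 12 in MD + PE against MD + Veh. The shares of all genes called in these comparisons, in either direction, were 2.92%, 10.4% and 1.08%. Over 29 alternative settings 15 or 16 genes of the 17 were called lower.

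Promoters are shown for 5 of these genes, 3 of sterol synthesis and 2 of fatty acid synthesis, because the genes moved together and the RefSeq promoter table gives the stretch from 250 bases before to 50 bases after each start. They are printed from 5′ to 3′ on the strand of the gene, with RefSeq positions on GRCm38.p6, another build than that of the gene positions above. Capitals mark the NF-Y box CCAAT on either strand and, in Hmgcs1, the core of the sterol regulatory element, and 2 of the boxes of Fasn overlap. Hmgcs1 (chr13:119690101-119690400, plus strand), which encodes the synthase of the first committed sterol intermediate, fell by 1.75 on the log2 scale. Nsdhl is at chrX:72918271-72918570 (plus strand), Mvk, the mevalonate kinase gene (-2.18), at chr5:114444019-114444318 (plus strand), Acacb at chr5:114165268-114165567 (plus strand) and Fasn at chr11:120824498-120824797 (minus strand).
Hmgcs1: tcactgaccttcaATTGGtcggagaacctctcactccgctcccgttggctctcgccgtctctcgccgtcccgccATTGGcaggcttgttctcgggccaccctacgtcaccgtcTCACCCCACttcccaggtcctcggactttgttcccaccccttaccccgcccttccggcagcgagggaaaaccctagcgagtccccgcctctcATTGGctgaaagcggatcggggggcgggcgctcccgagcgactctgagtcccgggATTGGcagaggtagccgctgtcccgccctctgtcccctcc
Nsdhl: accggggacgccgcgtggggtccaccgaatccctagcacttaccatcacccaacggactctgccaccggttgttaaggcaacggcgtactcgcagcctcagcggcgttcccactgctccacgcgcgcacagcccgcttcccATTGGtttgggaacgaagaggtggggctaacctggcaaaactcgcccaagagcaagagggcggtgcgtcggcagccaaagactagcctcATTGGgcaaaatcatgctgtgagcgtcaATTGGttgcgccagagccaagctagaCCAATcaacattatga
Mvk: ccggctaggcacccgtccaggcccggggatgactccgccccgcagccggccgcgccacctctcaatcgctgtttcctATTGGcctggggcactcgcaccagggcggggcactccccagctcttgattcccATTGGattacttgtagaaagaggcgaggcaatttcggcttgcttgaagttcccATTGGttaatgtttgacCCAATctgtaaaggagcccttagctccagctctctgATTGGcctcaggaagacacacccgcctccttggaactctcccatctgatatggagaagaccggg
Acacb: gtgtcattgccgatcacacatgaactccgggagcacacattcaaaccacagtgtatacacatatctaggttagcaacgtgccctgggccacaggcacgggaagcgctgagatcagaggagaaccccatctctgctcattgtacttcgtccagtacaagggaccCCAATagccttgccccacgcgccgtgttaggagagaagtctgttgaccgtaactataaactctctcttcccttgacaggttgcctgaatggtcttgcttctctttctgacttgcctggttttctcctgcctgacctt
Fasn: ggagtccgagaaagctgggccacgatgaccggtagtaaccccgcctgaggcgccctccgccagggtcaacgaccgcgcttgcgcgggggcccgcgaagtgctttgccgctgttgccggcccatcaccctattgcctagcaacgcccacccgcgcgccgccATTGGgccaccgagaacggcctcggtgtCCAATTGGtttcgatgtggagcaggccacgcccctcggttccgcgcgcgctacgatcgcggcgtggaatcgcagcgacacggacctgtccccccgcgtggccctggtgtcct
Over both synthesis lists, 30 of 37 genes had an entry in the table (81.1%), and 25 of these promoters (83.3%) held the NF-Y box, against 41.1% of all 27025 promoters of the same 300 bases. The core TCACNCCAC was found in 2 (6.67%, against 1.44%), in Hmgcs1, where it starts 137 bases before the start, and in Mlxipl. The E-box CACGTG was in 7 (23.3%, against 8.09%) and the PPAR motif AGGTCA in 5 (16.7%, against 18.1%), all on both strands. Among the 10106 promoters of genes tested, the NF-Y box was in 43.2% and the core TCACNCCAC in 1.47%. The E-box was in 11.6% of these and the PPAR motif in 15.6%. A match is a run of letters and not a site shown to be bound. Entries were matched for 74.3% of all genes tested, 71.5% of those called lower and 71.7% of those called higher. The NF-Y box was in 49.3% of the matched promoters of genes called lower and in 44.3% of those called higher. The core TCACNCCAC was in 3% and 1.36% of them.

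Targets of PPARα, the receptor that drives fatty acid oxidation, rose in part. Of 27 tested, 13 were called higher, against 6.02% of all genes, and 1 lower, with a median log2 fold change of 0.60. Cyp4a10 (on chromosome 4 from 115375461 to 115390849, plus strand), a fatty acid hydroxylase, was at 9.39, 50.9, 22.2 and 80.6 CPM in CD + Veh and at 261, 329, 479, 244 and 506 CPM in MD + PE. The CD + Veh libraries varied widely, and all MD + PE libraries lay above them (3.16, SE 0.58, adjusted p = 6.64e-04). The medium-chain dehydrogenase gene Acadm rose from 254 ± 31.5 CPM (SD, n = 4) to 537 ± 51.9 CPM (SD, n = 5) (1.08, SE 0.13, adjusted p = 7.51e-06). The peroxisomal thiolase gene Acaa1b rose from 744 ± 159.7 CPM (SD, n = 4) to 1874 ± 68.98 CPM (SD, n = 5) (1.33, SE 0.17, adjusted p = 1.60e-05). Other called members were the acylcarnitine carrier Slc25a20 (0.82), Cpt2 of the mitochondrial inner membrane (0.59) and the pantetheinase gene Vnn1 (2.18). Fabp1, the abundant liver fatty acid binding protein gene, fell (-0.45, SE 0.13, adjusted p = 0.0166). Cpt1a, the gate of fatty acid entry into mitochondria, was at 286 ± 56.2 CPM (SD, n = 4) and 358 ± 47.5 CPM (SD, n = 5) and was not called (0.32, SE 0.16, adjusted p = 0.154). The receptor gene Ppara itself was at 70.1, 63.9, 73.5 and 88.4 CPM in CD + Veh and 79.7, 89.0, 100.1, 80.8 and 103 CPM in MD + PE, overlapping groups (0.29, SE 0.15, adjusted p = 0.173). The study reports Ppara in its bulk data as induced by PE on either diet relative to CD + Veh, using DESeq2. Here Ppara was not called in MD + PE by edgeR or by DESeq2, and it was called in 1 of 29 alternative settings. With the clock score as a covariate Ppara (0.67) and Cpt1a (0.66) were called higher, and Cpt1a also without CD + Veh replicate 4 (0.48). Slc25a20 and Cpt2 lost their calls with the division of library numbers as a covariate, and Fabp1 with either covariate and without CD + Veh replicate 4. With the division of library numbers as a covariate 5 of the 27 were called higher, and with the clock score 15.

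Among targets of CAR and PXR, 8 of 15 tested were called higher and 0 lower, with a median of 1.01. The shares over all genes, to be set beside each list of this paragraph, were 6.02% higher and 8.55% lower. Cyp3a11 (on chromosome 5 from 145791236 to 145816867, minus strand), the main drug-metabolising CYP3A gene of mouse liver, was at 449, 735, 629.7 and 777 CPM in CD + Veh and at 2561, 2319.8, 3286, 3354 and 3169 CPM in MD + PE. It rose without overlap (2.18, SE 0.20, adjusted p = 2.28e-07). The exporter gene Abcc3 rose from 105 ± 34.4 CPM (SD, n = 4) to 327 ± 41.2 CPM (SD, n = 5) (1.63, SE 0.20, adjusted p = 1.00e-05), and Cyp3a25 (1.14), Cyp2c29 (1.29), Cyp2c50 (1.1) and Cyp2c37 (1.29) were called as well. Cyp2b10, the textbook CAR target, stayed low, at 0.435, 0.430, 0.0671 and 1.35 CPM in CD + Veh and 0.813, 1.35, 2.35, 1.58 and 2.42 CPM in MD + PE (1.56, SE 0.69, adjusted p = 0.122), and was not called, except without CD + Veh replicate 4 (2.44). Nr1i3, the CAR gene, was at 119, 141, 102 and 194 CPM in CD + Veh and 222, 235, 286, 143 and 298 CPM in MD + PE, with overlapping groups (0.77, SE 0.27, adjusted p = 0.0528). It lay close to the threshold and was called higher in 10 of 29 alternative settings, at log2 fold changes between 0.57 and 1.35 over all of them. Among these 10 was DESeq2, the tool of the study (0.78, adjusted p = 0.0165). The study reports Nr1i3 as induced in MD + PE relative to CD + Veh. Cyp2c29, Cyp2c50 and Cyp2c37 lost their calls with the division of library numbers as a covariate. In that fit 3 of the 15 were called, and with the clock score 9. Genes of glutathione and antioxidant defence rose in part, 6 of 21 being called higher and 0 lower, led by Gpx1, a glutathione peroxidase (0.99, SE 0.11, adjusted p = 5.07e-06), the transferase gene Gsta2 (2.09) and Gclc and Gclm, the subunits of the enzyme that starts glutathione synthesis (1.0 and 0.46). With the division of library numbers as a covariate 3 of these 21 were called, Gclm not among them.

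**Figure D3:**
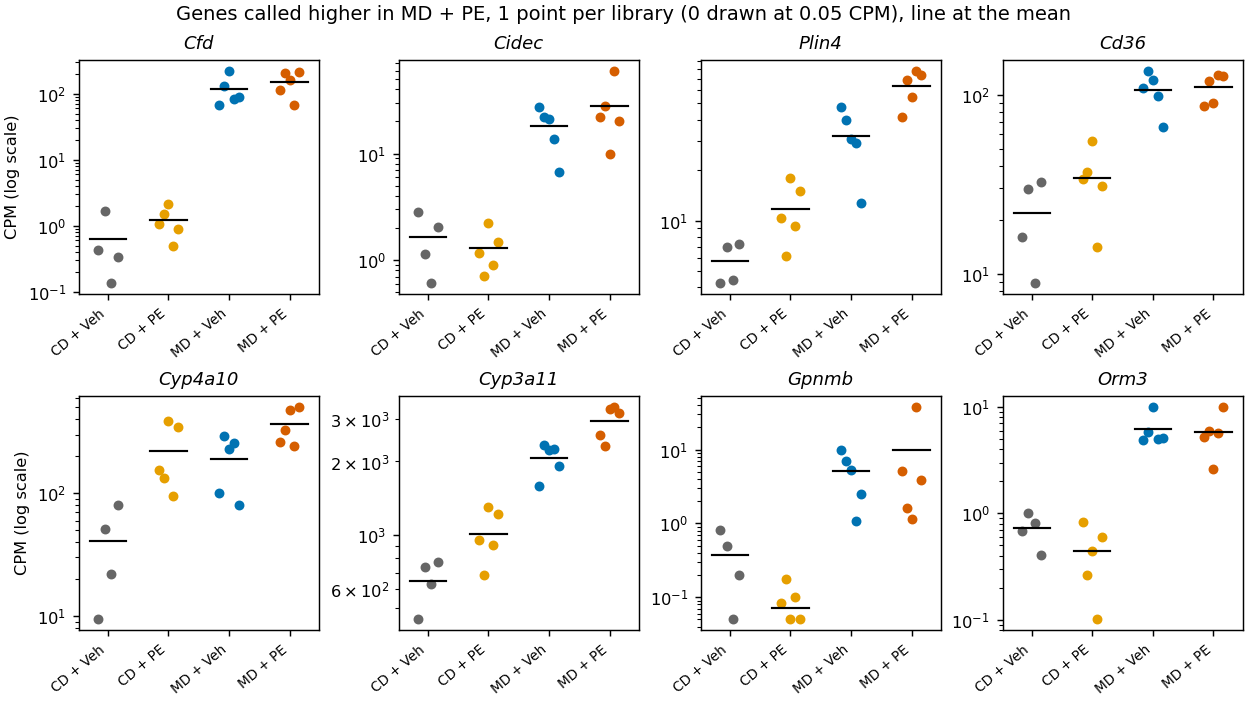
CPM (log scale) of 8 genes called higher in MD + PE in every library by group, with a line at the group mean and 0 drawn at 0.05 CPM. In each gene every MD + PE library lies above every CD + Veh library, and the MD + PE point of Gpnmb that stands highest, at 38.0 CPM, is replicate 4.

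Genes of the lipid droplet rose in part, 8 of 18 tested being called higher and 2 lower (median 0.52), against 6.02% and 8.55% of all genes. Cidec (on chromosome 6 from 113400691 to 113412721, minus strand), whose product fuses droplets in fat cells and in fatty liver, was at 2.80, 1.15, 0.604 and 2.02 CPM in CD + Veh and at 21.9, 28.0, 9.91, 59.9 and 20.02 CPM in MD + PE (4.07, SE 0.53, adjusted p = 2.23e-05). Plin4, a perilipin gene, was at 4.23, 6.95, 4.43 and 7.27 CPM in CD + Veh and at 41.3, 69.1, 54.9, 78.3 and 74.1 CPM in MD + PE (3.48, SE 0.36, adjusted p = 1.27e-06), again without overlap. Cd36, a carrier for fatty acid uptake, rose from 21.9 ± 11.3 CPM (SD, n = 4) to 110.3 ± 21.0 CPM (SD, n = 5) (2.34, SE 0.36, adjusted p = 1.11e-04). Cidea, a relative of Cidec, was near 0 in CD + Veh (0, 0.0716, 0 and 0.0674 CPM) and at 4.47, 2.61, 1.13, 5.08 and 6.02 CPM in MD + PE (6.49). Monoacylglycerol lipase (Mgll, 0.87) and Fitm1 (1.39), which helps droplets to form, were called too. Plin2, the most abundant perilipin gene of liver, averaged 311 ± 67.0 CPM (SD, n = 4) without exposure and 379 ± 80.0 CPM (SD, n = 5) in MD + PE and was not called (0.28, SE 0.16, adjusted p = 0.239). Side by side, Cidec changed by -0.36 in CD + PE against CD + Veh and 3.45 in MD + Veh against the same libraries, and Cfd by 0.98 and 7.56, of which those in MD + Veh were called. Of the other adipose markers tested, Fabp4 rose (1.30) and Lipe fell (-0.48). Without MD + PE replicate 4 Fabp4 changed by 0.82, and it lost its call with the clock score as a covariate, while Lipe lost its call in 8 of 29 settings. In a bulk library, fewer cells of a type and less RNA per cell cannot be told apart.

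Markers of macrophages that take up lipid rose in part, with 6 of 14 tested called higher and 1, Fabp5, lower (median 1.51). The counts of this paragraph, those of 0 included, are to be set beside the 6.02% of all genes called higher and the 8.55% called lower. Gpnmb (on chromosome 6 from 49013426 to 49047863, plus strand), a membrane glycoprotein gene of such macrophages, was at 0.808, 0.501, 0 and 0.202 CPM in CD + Veh and at 5.12, 1.60, 1.13, 38.0 and 3.86 CPM in MD + PE (4.68, SE 1.05, adjusted p = 0.00362). Mmp12, the macrophage elastase gene, was at 1.87, 0.215, 0.134 and 0.539 CPM in CD + Veh and 3.90, 2.19, 0.695, 23.3 and 4.04 CPM in MD + PE (3.28, SE 0.85, adjusted p = 0.00968). In both genes MD + PE replicate 4 stood far above the other libraries of its group, and without it they changed by 2.93 and 1.96, both still called. Lpl, lipoprotein lipase, went without overlap from 17.4, 17.1, 15.4 and 9.83 CPM to 43.2, 35.6, 34.9, 74.0 and 38.3 CPM (1.60, SE 0.40, adjusted p = 0.00737). Trem2, the receptor gene by which these cells are often named, was at 0.560, 0.645, 0.201 and 0.606 CPM in CD + Veh and 0.813, 0.253, 0.695, 5.77 and 0.359 CPM in MD + PE and was not called (1.67, SE 0.81, adjusted p = 0.16), and without replicate 4 it changed by 0.10. Without MD + PE replicate 4, 3 of the 14 were called higher and 2 lower, with a median of 0.84, and with the clock score as a covariate 0 were called higher by edgeR. Mmp12 lost its call with the division of library numbers as well. The summed level of the 14 markers, which Fabp5 dominates in CD + Veh, was 635 to 930.1 CPM in CD + Veh and 349.7 to 675 CPM in MD + PE. Of 13 markers of Kupffer cells, the resident macrophages of liver, 0 were called by edgeR (0 at an unadjusted p below 0.05) and 0 by DESeq2, with summed levels of 236 to 391 CPM in CD + Veh and 371 to 549 CPM in MD + PE. In the fit of the 9 libraries alone 3 of these 13 were called higher, and with the division of library numbers 1 was called lower. Anxa2, which encodes a membrane-binding annexin, was at 14.4, 11.7, 5.91 and 9.29 CPM in CD + Veh and 28.1, 36.5, 13.3, 67.7 and 21.0 CPM in MD + PE (1.69, SE 0.40, adjusted p = 0.00552), also highest in replicate 4, and lost its call with the clock score as a covariate.

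Few stellate cell and collagen genes were called. Over all genes, 6.02% were called higher and 8.55% lower, which is the share to set beside the counts of this paragraph. Of 21 tested, 3 were called higher and 0 lower, Reln (0.72, SE 0.16, adjusted p = 0.00365), Lrat (0.81), the retinol-storing enzyme gene of quiescent stellate cells, and the basement membrane collagen gene Col4a2 (0.56). Col1a1, the main fibrillar collagen gene, was at 9.83, 10.3, 3.69 and 4.85 CPM in CD + Veh and 9.18, 14.2, 5.48, 49.4 and 9.61 CPM in MD + PE, with overlapping groups and replicate 4 of MD + PE highest (1.30, SE 0.61, adjusted p = 0.139), and changed by 0.45 without that library. The summed level of the 21 was 341 to 483 CPM in CD + Veh and 369 to 891 CPM in MD + PE. With the clock score as a covariate 0 of them were called by edgeR. With the division of library numbers Reln and Col4a2 lost their calls, 2 of the 21 being called in that fit, and DESeq2 called 6. Col4a2 also lost its call without any of replicates 3 and 4 of CD + Veh or replicates 2 and 4 of MD + PE. Among sinusoidal endothelial genes 3 of 14 were called higher, Ptprb (0.62, SE 0.12, adjusted p = 9.95e-04), the scavenger receptor gene Stab2 (0.51) and Oit3 (0.39). Oit3 was at 20.3, 16.3, 14.3 and 20.004 CPM in CD + Veh and 20.3, 21.4, 25.1, 28.2 and 21.2 CPM in MD + PE, and lost its call in 7 of 29 settings. Between 0 and 4 of the 14 were called higher over the 29 settings. Ptprb lost its call with the division of library numbers as a covariate and Stab2 with either covariate. Of 8 duct epithelium markers 1, Krt23, was called higher (1.94, SE 0.33, adjusted p = 3.16e-04), and their summed level was 101 to 125 CPM in CD + Veh and 119.7 to 263 CPM in MD + PE, highest in replicate 2. Krt19, the classical duct keratin, stood at 58.7 CPM in MD + PE replicate 2 and at most 8.17 CPM in any other library of the 2 groups, and its log2 fold change went from 2.10 to -1.06 without that library and to 3.28 without CD + Veh replicate 2. Ctse, a protease gene of gastric and gut epithelium, was at 49.3 CPM in that library and at most 1.74 CPM in the others of MD + PE (4.64, SE 1.29, adjusted p = 0.0152), and without that library changed by 1.67 and lost its call, and without CD + Veh replicate 2 by 8.44. Its call was also lost with either covariate, without CD + Veh replicate 4 and with only the 9 libraries of both groups in the fit. The part of these epithelial genes in other results was not tested.

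Immune response genes are set beside the 6.02% of all genes called higher and the 8.55% called lower. Of 20 interferon response genes 1, Rsad2, was called higher (1.29, SE 0.26, adjusted p = 0.00174), a call lost with the clock score as a covariate, and of 14 antigen presentation genes 0 by edgeR (0 at an unadjusted p below 0.05, and 0 called by DESeq2). In the fit of the 9 libraries alone 4 of these 14 were called higher, and with the clock score as a covariate 4 were called lower. Of the interferon list, 3 were called higher in the former and 4 lower in the latter. Acute phase genes, which the liver secretes in inflammation, split into 5 higher and 6 lower of 20, with 1 to 7 higher and 5 or 6 lower over 29 alternative settings. The fibrinogen genes Fgb (-0.74, SE 0.092, adjusted p = 1.33e-05), Fgg (-0.49) and the pentraxin gene Apcs (-1.14) fell. Orm3, which encodes an orosomucoid, rose from 0.684, 1.00, 0.805 and 0.404 CPM to 5.20, 5.89, 2.61, 5.63 and 9.97 CPM (3.00, SE 0.41, adjusted p = 3.44e-05), and Orm1, the more abundant gene of that family, fell (-0.78). Orm genes are near-identical in sequence, so that the split of reads among them is uncertain. The serum amyloid gene Saa4 rose (1.19, SE 0.23, adjusted p = 0.00105) and haptoglobin (Hp) rose from 2019 ± 298 CPM (SD, n = 4) to 2925 ± 423 CPM (SD, n = 5) (0.53), Hp losing its call with either covariate and Saa4 with the division of library numbers. The inflammation signature that the study applied to liver sections of this experiment, not taken here as independent, had 1 of its 6 genes tested higher (Hp) and 1 lower, the coagulation factor gene F3 (-0.84), both lost with either covariate.

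Hepatocytes differ in their genes between the portal and the central side of the lobule. Of 13 periportal genes tested 9 were called lower and 0 higher (median -0.66). The shares over all genes, to be set beside each list of this paragraph, were 8.55% lower and 6.02% higher. Ass1 (on chromosome 2 from 31352181 to 31410862, plus strand), the argininosuccinate synthase gene of the urea cycle, was at 2612, 4079.8, 3268 and 3224 CPM in CD + Veh and at 1523, 1152, 1224, 1107 and 1473 CPM in MD + PE, without overlap (-1.35, SE 0.13, adjusted p = 5.03e-07). Gls2, the liver glutaminase gene, was at 279, 364, 363 and 312 CPM in CD + Veh and 145, 122, 140.4, 104 and 132 CPM in MD + PE (-1.35, SE 0.12, adjusted p = 1.48e-07). The urea cycle gene Arg1 (-0.84) and the serine dehydratase genes Sds (-1.17) and Sdsl (-0.86) fell too, Sds losing its call with the clock score as a covariate and Sdsl with the division of library numbers. Cyp2f2, another portal marker, was at 996 ± 263 CPM (SD, n = 4) and 986 ± 214 CPM (SD, n = 5) (-0.015, SE 0.17, adjusted p = 0.964). Of 13 pericentral genes 5 were called higher and 1 lower. Cyp2e1, a P450 gene of ethanol and drug oxidation, rose from 3816 ± 786 CPM (SD, n = 4) to 7419.8 ± 1186 CPM (SD, n = 5) (0.96, SE 0.16, adjusted p = 3.44e-04). Oat, which encodes ornithine aminotransferase, rose from 316 ± 99.4 CPM (SD, n = 4) to 716 ± 177 CPM (SD, n = 5) (1.18, SE 0.19, adjusted p = 2.35e-04). Glul, the glutamine synthetase gene of the cells around the central vein, was at 1211 ± 163 CPM (SD, n = 4) and 1128 ± 78.5 CPM (SD, n = 5) (-0.10, SE 0.10, adjusted p = 0.499). With the division of library numbers as a covariate 5 periportal genes were called lower and 1 pericentral gene higher, and with the clock score 6 and 3. General hepatocyte genes fell more often than they rose, 7 lower and 2 higher of 15, with Alb at 52983, 47454, 56408 and 63092 CPM in CD + Veh and 36125, 35790.5, 43759, 32286 and 36309.5 CPM in MD + PE (-0.58, SE 0.15, adjusted p = 0.00825). The transcription factor gene Cebpa (-0.69) and Apoa1, the main protein of high-density lipoprotein (-0.65), fell as well. Over the 29 settings 3 to 8 of the 15 were called lower and 0 to 3 higher. Alb lost its call with either covariate, and Apoa1 and Cyp2e1 with the division of library numbers.

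Some genes of sugar use fell. The counts of this paragraph are to be set beside the 6.02% of all genes called higher and the 8.55% called lower. Of 18 tested 5 were called lower and 0 higher, among them ketohexokinase (Khk), the first enzyme of fructose breakdown, at 668, 628, 641 and 785 CPM in CD + Veh and 330.4, 306, 295, 306 and 312 CPM in MD + PE (-1.14, SE 0.12, adjusted p = 1.17e-06), and liver pyruvate kinase (Pklr, -1.85, SE 0.19, adjusted p = 1.20e-06). Fbp1, of glucose synthesis, fell too (-0.63). Over 29 alternative settings 3 to 8 of the 18 were called lower. Of 16 growth hormone and male-typical genes 1 was called higher, the elongase gene Elovl3 (1.15, SE 0.31, adjusted p = 0.0116), and 1 lower, Igfbp2 (-0.47), a share near that of all genes. Elovl3 lost its call with either covariate and Igfbp2 in 21 of 29 settings. Of 38 nuclear receptor genes 2 were called higher and 4 lower, a share near that of all genes. The called ones were Nr4a2 (1.61) and Pparg (0.98) on the higher side, Pparg at 3.86, 7.95, 5.03 and 11.05 CPM in CD + Veh and 10.3, 18.2, 14.1, 16.8 and 9.34 CPM in MD + PE, and Esrra (-0.72), Nr2c1 (-0.69), Esr1 (-0.61) and Nr3c2 (-0.54) on the lower side. Esr1, the estrogen receptor gene, and Pparg, which drives fat storage, lost their calls with either covariate, as did Nr3c2, while Nr4a2 lost it with the division of library numbers and Nr2c1 with the clock score. Esr1 also lost its call without CD + Veh replicate 4, Nr3c2 without replicates 1 and 2 and Pparg without replicates 1 and 3 of CD + Veh.

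Clock genes were called in both directions, 4 higher and 6 lower of 18, against 6.02% and 8.55% of all genes. Bmal1 rose from 2.61, 2.65, 4.76 and 2.22 CPM to 18.8, 10.6, 9.21, 8.45 and 9.34 CPM (1.88, SE 0.40, adjusted p = 0.00231), and Npas2 (3.00), Clock (0.72) and Cry1 (0.91) rose with it. Clock also lost its call with the division of library numbers. The output gene Dbp fell from 122, 149, 113 and 169 CPM to 16.1, 27.4, 41.03, 38.2 and 60.3 CPM (-1.92, SE 0.46, adjusted p = 0.00605), and Per3 (-1.79) fell too. With the clock score as a covariate the 4 rises lost their calls, and Dbp and Per3 changed by 0.20 and 0.086, not called. The score is itself made from Bmal1, Npas2, Clock, Dbp and Per3 among others. That fit was therefore bound to take up change in these genes, and nothing further is drawn from it for them. The time of day at which each liver was taken is not given in the sources used here, and its part in these values was not tested.

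MD + PE was also set against each of the other groups at once. A gene was taken to stand apart when it differed the same way from CD + Veh, from CD + PE and from MD + Veh. The largest of the 3 p-values was adjusted over all genes (an intersection-union test on edgeR's quasi-likelihood p-values with Benjamini-Hochberg adjustment), and the smallest of the 3 changes had to reach 0.38 on the log2 scale. This held for 45 genes (0.331%), 1 higher and 44 lower, while MD + PE against CD + PE alone had 627 calls (4.61%). The 45 included 7 genes of the cholesterol list and 7 of the fatty acid list. An unadjusted p below 0.05 was found in 607 genes, and DESeq2 called 70 genes, of which 44 were also called by edgeR. The first by p was Acacb. In CD + Veh its level was 396 ± 118 CPM (SD, n = 4), and in CD + PE 134 ± 37.4 CPM (SD, n = 5). In MD + Veh its level was 95.3 ± 36.5 CPM (SD, n = 5), and in MD + PE 17.0 ± 5.92 CPM (SD, n = 5) (intersection-union adjusted p = 6.74e-04). Pmf1, which encodes a factor of chromosome segregation, was at 21.1, 21.8, 24.1 and 25.5 CPM in CD + Veh and at 10.2, 10.4, 10.4, 9.54 and 10.5 CPM in MD + PE, with 20.6 and 15.8 CPM as the means of CD + PE and MD + Veh. Qdpr, which regenerates the cofactor of phenylalanine breakdown, went from a mean of 400.0 CPM through 345 and 300.4 CPM to 199.6 CPM in MD + PE (-1.0, SE 0.077, adjusted p = 2.51e-08 against CD + Veh). The acyl-CoA binding protein gene Dbi (-0.75), the cytochrome b5 reductase gene Cyb5r3 (-1.34), Zfand4 (-1.62), Slc25a1, Sc5d, Dhcr7 and Gls2 completed the 10 with the smallest adjusted p.

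Some of these genes changed little under either exposure alone. Elovl5, an elongase of polyunsaturated fatty acids (on chromosome 9 from 77818113 to 77891802, plus strand), was at 810.3, 762, 749.7 and 1128 CPM in CD + Veh, and 758, 917, 967, 609 and 909 CPM in CD + PE. It was at 796, 1350.3, 866, 791 and 919 CPM in MD + Veh and 299.9, 454, 261, 638 and 276 CPM in MD + PE. It changed by -0.052 in CD + PE and 0.13 in MD + Veh, both not called, and by -1.16, SE 0.24, adjusted p = 0.0016 in MD + PE. Its call against CD + Veh was lost with the division of library numbers as a covariate, at -0.93. Ildr2, which encodes a membrane protein of the endoplasmic reticulum, was the 1 gene that stood higher. It was at 19.5, 23.9, 19.9 and 25.2 CPM in CD + Veh and 20.8, 17.7, 27.8, 16.6 and 28.0 CPM in CD + PE. It was at 25.4, 33.0, 28.6, 28.7 and 14.1 CPM in MD + Veh and 39.98, 53.6, 39.1, 53.8 and 58.9 CPM in MD + PE. All 5 MD + PE libraries lay above all other libraries. H2-Q10, a class Ib histocompatibility gene of hepatocytes (-0.50), and Gstm6, a glutathione transferase gene (-0.68), were close to CD + Veh in both single exposures. Their means were 2195, 2275, 2181 and 1553 CPM for H2-Q10 and 76.9, 76.0, 69.6 and 47.9 CPM for Gstm6, in the order CD + Veh, CD + PE, MD + Veh, MD + PE. These genes belong to families of near-identical members, so that the assignment of reads is uncertain, and their calls against CD + Veh were lost with the division of library numbers as a covariate. The methylation enzyme gene Gnmt was at 1295, 1214, 1093 and 717 CPM in the same order (-0.85 against CD + Veh).

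**Figure D4:**
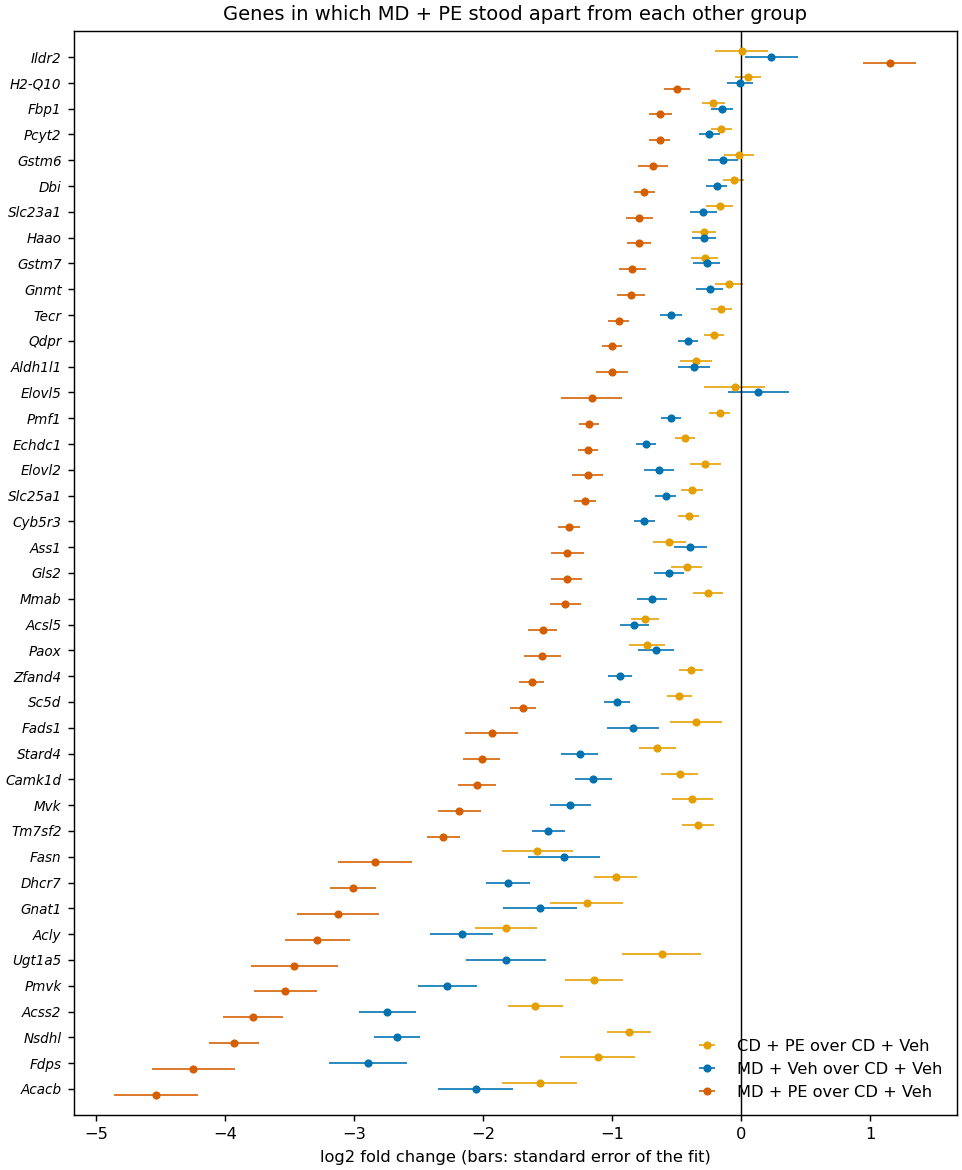
Log2 fold change with its standard error for 41 of the protein-coding genes that stood apart in MD + PE from each other group, for the groups with PE, MD or both over CD + Veh. The genes were chosen for MD + PE lying beyond each other group, so that its point lies farthest from 0 in every gene drawn by that choice. Ildr2 is the 1 gene whose MD + PE point lies to the right of 0.

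A term for the interaction of PE and diet asks whether the joint change differs from the sum of both single changes on the log2 scale. A call was made in 1 gene (0.00735%), the uridine-cytidine kinase gene Uck1, while 1193 genes had an unadjusted p below 0.05 and DESeq2 called 78. Uck1 was at 19.5, 24.4, 22.8 and 22.2 CPM in CD + Veh, 32.7, 35.7, 42.1, 30.5 and 31.8 CPM in CD + PE, 40.4, 43.7, 45.6, 46.4 and 43.1 CPM in MD + Veh and 41.9, 36.1, 32.6, 32.5 and 37.9 CPM in MD + PE. The joint change (0.70) was thus no larger than the change with MD alone (0.98), and the interaction was -0.91, SE 0.13, adjusted p = 0.024 (edgeR's quasi-likelihood test with Benjamini-Hochberg adjustment). The call was lost in 10 of the 19 fits that left out 1 library. For Acacb the interaction was -0.92, SE 0.40, adjusted p = 0.535 and for Elovl5 -1.24, SE 0.33, adjusted p = 0.216, neither called. Of other genes the study names for the joint exposure, Pask, a metabolic kinase gene, averaged 0.635 ± 0.244 CPM (SD, n = 4) without exposure and 0.723 ± 0.362 CPM (SD, n = 5) in MD + PE (0.17, SE 0.47, adjusted p = 0.845). Nkap, a transcription cofactor gene, was at 9.31 ± 1.26 CPM (SD, n = 4) and 11.2 ± 0.811 CPM (SD, n = 5) in them (0.26, SE 0.13, adjusted p = 0.171). Neither was called. The study names them for the effect of PE on the MASH diet, and in MD + PE against MD + Veh they changed by 0.41 and 0.33, not called either.

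Remaining lists gave smaller counts, to be set beside the 6.02% of all genes called higher and the 8.55% called lower. Of 16 genes of endoplasmic reticulum stress 3 were called higher, Chac1, a glutathione-degrading enzyme gene (1.91, SE 0.37, adjusted p = 0.0012), Sdf2l1 (1.08) and Pdia4 (0.58), and 1 lower, the transcription factor gene Atf4 (-0.62). Of 16 cell cycle genes 2 were called higher, among them the cell cycle inhibitor Cdkn1a, at 2.80, 0.931, 0.470 and 2.36 CPM in CD + Veh and 8.13, 9.09, 2.17, 26.1 and 10.3 CPM in MD + PE (2.76, SE 0.65, adjusted p = 0.00491), and 1 lower, Ccne1 (-1.09). Cdkn1a lost its call with the clock score as a covariate, Atf4 with the division of library numbers, and Pdia4, Sdf2l1 and Ccne1 with either. Sdf2l1 and Ccne1 also lost their calls in several fits without 1 library, 8 and 7 of 29 settings in all. Of 15 mitochondrially encoded genes mt-Nd6 (1.47) and mt-Nd5 (0.45) were called higher and mt-Nd3 lower (-1.06), all of them lost with the division of library numbers as a covariate. The call of mt-Nd5 was lost in 10 of 29 settings, the clock score and the replicate block among them. The mRNA of mt-Nd6 is known to lack a poly(A) tail, and the libraries were made from poly(A) mRNA. Of 5 red blood cell, 15 skeletal muscle and 1 exocrine pancreas genes 0 were called by edgeR (0, 0 and 0 at an unadjusted p below 0.05) or by DESeq2, and without the filter on low counts 1 exocrine pancreas gene was called lower. In the fit of the 9 libraries of both groups alone, 1 of the 15 muscle genes passed the filter. Summed muscle genes reached 78.7 CPM in CD + Veh, 692 CPM in CD + PE and 5458 CPM in MD + Veh, from lowest values of 10.04 to 14.6 CPM, and lay between 9.41 and 21.0 CPM in MD + PE. Myh1 was at 0.0622, 9.598, 0.268 and 0.0674 CPM in CD + Veh and at 0.325, 0.0842, 0, 0.0687 and 0.0898 CPM in MD + PE.

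**Figure D5:**
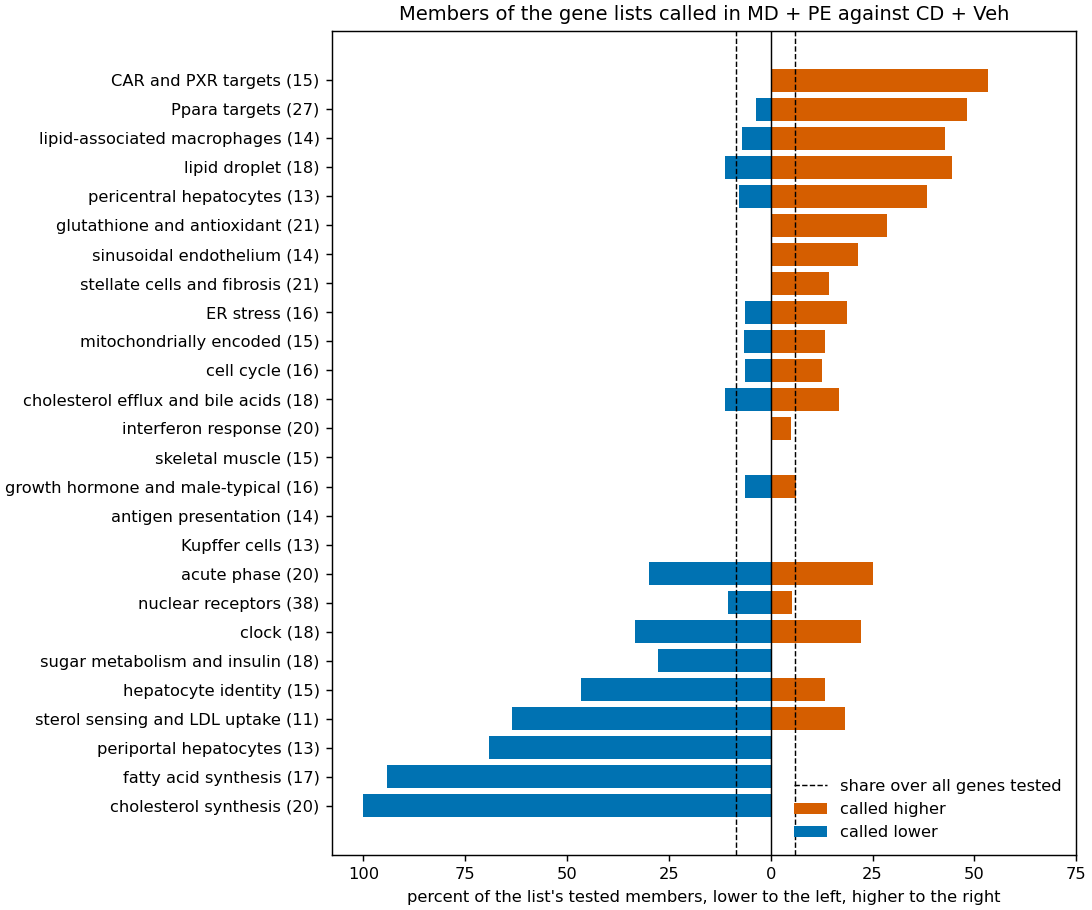
Percent of tested members called higher (right) and lower (left) in MD + PE against CD + Veh for each gene list with at least 10 tested members, their number in brackets, and dashed lines at the share over all genes tested. The bars of cholesterol synthesis (20 of 20) and fatty acid synthesis (16 of 17) reach farthest to the left, and those of targets of CAR and PXR (8 of 15) and of PPARα (13 of 27) farthest to the right.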

How the data were processed

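Poly(A) mRNA from livers of 19 mice was sequenced. The authors deposited estimated counts per gene, rounded to whole numbers, which they made by trimming reads with fastp 0.23.4, quantifying transcripts of GRCm39 with Salmon 1.10.3 (versions from the submitters' processing notes) and summing transcripts to genes. The GENCODE release they used is not given in the sources used here. Groups came from the sample labels. Each library is a separate mouse, and 16 pairs of libraries within a group differed by more than counting error.

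Genes were kept by edgeR's filterByExpr with the group as design (13597 of 55836, 29651 being at 0 in all libraries). edgeR 4.0.16 in R 4.3.3, with TMM factors and 1 coefficient per group over all 19 libraries, gave quasi-likelihood tests of each contrast with Benjamini-Hochberg adjustment over all genes tested. DESeq2 1.42.0, other filters and size factors, covariates, a replicate block and fits without 1 library were alternatives. Fits of list members without MD + PE replicates 2 and 4 and the lists of the closing section were chosen after seeing the data. On simulated counts of 13404 genes, 200 of them changed by 1.5 on the log2 scale in MD + PE alone, 179 were recovered in MD + PE against CD + Veh with 5 false calls, and 174 and 162 in the test against each other group and in the interaction, with 0 and 8 false calls. Counts between 10398820 and 15456729 in the 19 libraries set the precision, and floors and intervals cover counting error only.

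The comparison and the gene lists were chosen with earlier results of these data known. Genes were named by rule: the 12 largest rises and 12 largest falls among calls without overlap whose higher group averaged 5 CPM or more, up to 6 members of each list with the smallest adjusted p, the first 10 genes apart from each other group, interaction calls, genes the study names for the joint exposure, and ribosomal pseudogenes that divide the libraries by number. Chosen after their values were seen were Alb, Aldoc, Col1a1, Cpt1a, Crot, Cyp2b10, Cyp2f2, Cyp7a1, Elovl5, Fabp1, Fasn, Fdps, G6pdx, Gcat, Glul, Gnmt, Gstm6, H2-Q10, Hmgcs1, Hsd17b4, Ildr2, Insig1, Ldha, Mlxipl, Mvk, Npas2, Nr3c2, Nudt7, Pgd, Plin2, Rpl3, Saa4, Scd1, Srebf1 and Trem2. Some genes that the rule names are not reported here. Gene positions are from GENCODE vM39 (13502 of the genes tested matched by symbol) and promoters from RefSeq on GRCm38.p6.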

Additional observations from a re-analysis of the deposited data

Results flagged for a closer look

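Libraries that stood apart from the rest of their group were looked for in every gene named in the text and in total counts and clock score, in CD + Veh and MD + PE. The gap between the extreme library and its nearest neighbour, divided by the range of the group, passed Dixon's limit for the group size in 32 of 325 cases. That limit is set at 1 in 20 for independent, normally distributed values. CPM are not such values, and some genes were named after their values were seen, so that no excess over chance is read from the count. The ratio of gap to range is given in brackets below.

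MD + PE replicate 4 was the library farthest from its group in 12 genes. It was highest for the macrophage genes Gpnmb (0.892), Trem2 (0.898) and Mmp12 (0.852), for the collagen gene Col1a1 (0.801), for Lpl (0.788), Fabp4 (0.871), Plin2 (0.720) and Themis (0.721) and, on very few counts, for Chrna4 (0.763). It was lowest for Gnmt (0.933), mt-Nd5 (0.884) and Pmf1 (0.722). Gnmt, for example, was at 517 CPM in that library and between 758 and 775 CPM in the other 4. MD + PE replicate 2 was highest for the epithelial genes Ctse (0.984) and Krt19 (0.970) and for Nsdhl (0.847), and lowest for Zfand4 (0.925). MD + PE replicate 1 was highest for the clock genes Bmal1 (0.790), Npas2 (0.777) and Cry1 (0.759) and for the muscle gene Myh1 (0.724), replicate 3 for Crot (0.731), and replicate 5 for Sds (0.799) and Glul (0.781).

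In CD + Veh, replicate 2 was highest for Myh1 (0.978), Ctse (0.961) and Krt19 (0.913), replicate 3 for Bmal1 (0.832), and replicate 4 for Gcat (0.896), Plin2 (0.853), Elovl5 (0.840) and Hsd17b4 (0.831). CD + Veh replicate 4 was lowest for Nudt7 (0.874), at 393 CPM, with the other 3 between 578 and 604 CPM.

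The effect of PE differed between the diets in Uck1 by the test of the difference itself, with an interaction of -0.91 on the log2 scale. PE changed Uck1 by 0.64 on the control diet and by -0.28 on the MASH diet, the latter not called. The call was lost in 10 of the 19 fits that left out 1 library, with adjusted p from 0.0101 to 0.117 by edgeR over the 19, and it was also lost with the clock score as a covariate (adjusted p = 0.342). It was lost when replicate 1 or 4 of CD + Veh, replicate 2 of CD + PE, any of replicates 2 to 5 of MD + Veh, or replicate 2, 3 or 5 of MD + PE was left out.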

How the results depend on the processing

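The count of 1982 genes called in MD + PE against CD + Veh (819 higher, 1163 lower) stayed within 1.5 times under RLE size factors (1961), DESeq2 (2134), no filter (1822) or a strict filter (1946) on low counts, no minimum fold change (2768), robust dispersion (1956), thinned counts (1922) and a fit of the 9 libraries alone (1995). It fell to 930 (339 higher, 591 lower) with the division of library numbers as a covariate and to 1178 (496 higher, 682 lower) with the clock score, and 712 and 877 of those genes were also among the 1982. Replicate numbers were not taken to pair the mice. Residuals of libraries with 1 number had a median correlation of 0.0293 over 27 pairs. In the 4 such pairs of CD + Veh and MD + PE it ran from 0.054 to 0.22. Pairs with different numbers were not set beside these, so that pairing is not excluded. With the replicate block 1974 genes were called (800 higher, 1174 lower), 1796 of them shared. The 45 genes apart from each other group became 70 with DESeq2, 24 with the division, 44 with the replicate block and 42 with the clock score. The 1 interaction call became 78 with DESeq2, 41 with the replicate block, 54 with the division and 0 with the clock score by edgeR. Without 1 library the counts ranged from 1618 (without CD + Veh replicate 4) to 2174 called, from 706 to 975 higher and from 903 to 1199 lower, from 23 (without MD + PE replicate 3) to 47 apart from each other group, 26 without MD + PE replicate 5, and from 0 to 3 for the interaction. The causes were not tested.

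Of 147 genes named and called, the direction turned in Dbp (0.20) and Per3 (0.086) with the clock score. It turned in H2ac19 (0.14) with the division. A further 44 and 38 genes lost their calls with the division and the clock score. Dbp and Per3 are part of that score, as are Bmal1, Clock and Npas2 among the genes that lost calls with it. Among genes not called, values near 0 changed sign. Srebf1 was at 0.014 under RLE and DESeq2, 0.057 with the replicate block, 0.24 with the division and 0.0091 with the 9 libraries alone, and from -0.12 to 0.10 without 1 library. Cyp2f2 was at 0.0033 under RLE and DESeq2 and 0.0072 with the clock score (-0.10 to 0.17 without 1 library), Mlxipl at 0.15 with the clock score (-0.10 to 0.083), Cyp7a1 at -0.64 with the division and -0.25 with the clock score (-0.28 to 0.44), and Pask at -0.081 with the clock score and -0.0047 with thinned counts (-0.084 to 0.41). Krt19 ranged from -1.06 to 3.28 without 1 library, and Myh1 was at 2.94 with the division. Between 10398820 and 15456729 counts in each of the 19 libraries limit genes of few counts, such as Trem2 and Cyp2b10, most.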

Other observations

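The lists of the next 2 paragraphs were written after the values of these libraries had been seen, so that their counts describe the libraries and support nothing further. In MD + PE against CD + Veh 6.02% of all genes were called higher and 8.55% lower, the shares to set beside these lists. Glycolysis and the pentose phosphate pathway, which yields NADPH for lipid synthesis, fell in part in MD + PE against CD + Veh, with 11 of 21 genes called lower and 1, Ldha, higher (0.52), and a median log2 fold change of -0.61. G6pdx, the entry enzyme of the pentose phosphate pathway, was at 32.4, 30.2, 20.5 and 55.1 CPM in CD + Veh and at 4.47, 5.31, 2.78, 2.88 and 1.71 CPM in MD + PE, without overlap (-3.33, SE 0.39, adjusted p = 6.91e-06). Pgd, which encodes the next dehydrogenase of that pathway, fell from 99.4 ± 20.4 CPM (SD, n = 4) to 36.8 ± 9.04 CPM (SD, n = 5) (-1.43), and Aldoc, an aldolase gene, from 16.0 ± 3.94 CPM (SD, n = 4) to 1.85 ± 0.844 CPM (SD, n = 5) (-3.09). Peroxisomal enzymes rose more often than they fell, 12 of 27 higher and 2 lower (5 and 2 with the division of library numbers as a covariate), for example Crot, which moves shortened fatty acids out of the peroxisome (1.39, SE 0.15, adjusted p = 1.84e-06), and Hsd17b4 of peroxisomal oxidation (0.74), while Nudt7, a peroxisomal CoA hydrolase, fell (-1.36) and lost its call with the clock score as a covariate.

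Of 39 genes of amino acid breakdown and 1-carbon metabolism 15 were called lower and 3 higher, with falls in the threonine pathway gene Gcat (-1.23) and in Qdpr and Gnmt, and a rise in Oat. Cytosolic ribosomal protein genes were lower, 42 of 80 being called lower and 1 higher (median -0.41), and their summed level was 11226 to 12646 CPM in CD + Veh and 8479 to 9462 CPM in MD + PE. Rpl3, a protein of the large subunit, was at 278, 256, 267 and 299 CPM in CD + Veh and 169, 142, 138, 148 and 149.6 CPM in MD + PE (-0.88, SE 0.07, adjusted p = 3.85e-08). Side by side, 4 ribosomal protein genes were called lower than in CD + Veh in CD + PE and 33 were in MD + Veh, and 0 in MD + PE against MD + Veh by edgeR, comparisons that share libraries. The shares of all genes called in them, in either direction, were 2.92%, 10.4% and 1.08%. These genes have near-identical copies elsewhere in the genome, so that the assignment of reads is uncertain, and over 29 alternative settings between 23 and 47 of the 80 were called lower.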
